A study of Homo sapiens with 2 samples.

Results

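Histone genes of the replication clusters were examined in K562 cells, an established line from chronic myeloid leukaemia with the BCR-ABL fusion. The cells held an inducible short hairpin RNA against Bmi1, the Polycomb subunit BMI1. One culture was kept with doxycycline, which induces the hairpin, for 96 h, and 1 control culture received none, so each group was 1 sample on 1 array. Both groups carried the hairpin construct, and the doxycycline itself cannot be told apart from the hairpin it induces. The histone genes were taken by name: every probe set row whose annotated gene has an older symbol starting with HIST1H, HIST2H, HIST3H or HIST4H. This gave 79 of the 33297 rows, which name 73 genes, and 20 of the 79 carry several symbols because the copies are near-identical. The rows are 6 for H1, 16 for H2A, 23 for H2B, 14 for H3 and 17 for H4, and 3 rows name genes of more than 1 type. Values are log2 units, a difference is always doxycycline minus control, and with 1 sample per group no difference could be set against a replicate spread and no test was made.

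Each nucleosome is built from the core histones H2A, H2B, H3 and H4, and the linker histone H1 binds the DNA between nucleosomes. The bulk of these proteins is made in S phase from clustered, intronless genes whose mRNAs end in a stem-loop bound by SLBP rather than in a poly(A) tail. BMI1 belongs to Polycomb repressive complex 1, whose known activity is to attach ubiquitin to histone H2A. The labelling followed a whole-transcript protocol, which primes along the RNA and does not depend on a poly(A) tail.

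The BMI1 row (7926609, shared with COMMD3-BMI1) had values of 10.00 with and 10.84 without doxycycline (1.79-fold lower), the direction the labels give. Of 10 erythroid markers fixed for this line, 9 had a row. All 10 rows were lower with doxycycline, against 49.2% of all rows with a symbol. The list median was 9.64 with doxycycline and 10.01 without. The globin gene HBZ differed by -0.65 and -0.44 at its 2 rows and the erythroid factor GATA1 by -0.18. Of markers for other cells, CD3E, CD3G, MS4A1 and ALB were under 6 in both samples, the collagen genes COL1A1 and COL3A1 were between 6.62 and 7.84, and the epithelial genes KRT19 and EPCAM between 8.85 and 9.37. The erythroid values moved the same way as the histone values below, and their part in the histone result was not tested.

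The promoters are shown first, because they are what the histone types share and differ in by sequence. RefSeq (GRCh38.p14) gave a start site for 65 of the 73 genes, taking the first start listed per gene. The 150 bases before the start are printed 5′ to 3′ on the gene's strand for members named below. Capitals mark matches on either strand to 4 motifs: the TATA box letters TATAA, the CCAAT box by its name's letters, the octamer spelled ATTTGCAT and the H1 box spelled AAACACA.
H1-5: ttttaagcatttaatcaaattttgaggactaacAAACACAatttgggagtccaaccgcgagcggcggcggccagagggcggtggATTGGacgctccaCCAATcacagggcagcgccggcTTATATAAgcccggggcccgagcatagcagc
H2AC4: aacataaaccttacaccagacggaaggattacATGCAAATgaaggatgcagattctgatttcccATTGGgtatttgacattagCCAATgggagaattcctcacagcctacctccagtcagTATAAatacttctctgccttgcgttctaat
H2BC12: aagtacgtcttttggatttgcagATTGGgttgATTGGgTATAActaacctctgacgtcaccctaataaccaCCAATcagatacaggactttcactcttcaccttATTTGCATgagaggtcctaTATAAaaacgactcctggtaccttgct
H2BC14: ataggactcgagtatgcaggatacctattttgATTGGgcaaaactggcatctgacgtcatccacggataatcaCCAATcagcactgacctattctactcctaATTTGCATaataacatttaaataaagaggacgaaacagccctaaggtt
H3C2: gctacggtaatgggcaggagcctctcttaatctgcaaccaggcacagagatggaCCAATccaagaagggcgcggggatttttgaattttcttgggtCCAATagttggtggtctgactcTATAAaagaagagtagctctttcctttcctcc
H4C5: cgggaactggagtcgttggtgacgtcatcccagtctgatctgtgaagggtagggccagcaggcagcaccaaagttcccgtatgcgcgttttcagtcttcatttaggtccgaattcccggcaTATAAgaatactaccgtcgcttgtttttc
H4C14: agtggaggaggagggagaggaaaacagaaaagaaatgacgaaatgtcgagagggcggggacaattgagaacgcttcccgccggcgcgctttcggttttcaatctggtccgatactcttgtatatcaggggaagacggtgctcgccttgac
These stretches lie at chr6:27867589-27867738 (minus strand), chr6:26033619-26033768 (minus), chr6:27146859-27147008 (minus), chr6:27814872-27815021 (plus), chr6:26032100-26032249 (minus), chr6:26204460-26204609 (plus) and chr1:149832507-149832656 (plus). The TATA letters can overlap their own reverse complement, as they do in H1-5, and no other motif matches overlapped in these stretches. H1-5, H2AC4, H2BC12 and H3C2 were chosen as members that were lower with doxycycline, H2BC14 and H4C5 as members that were higher, and H4C14 as a gene with the largest negative difference among H4 rows, tied with H4C15. The H4C14 stretch held none of the 4 motifs.

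Motif content followed the histone type. Over the 250 bases before the start, TATAA stood in 60 of 65 histone promoters (92.3%), against 19.6% of 27305 promoters in all. CCAAT stood in 55 of 65 (84.6%), against 33% of all. All H1, H2A, H2B and H3 promoters held CCAAT, but only 3 of 13 H4 promoters did. The octamer, a binding sequence of POU factors such as OCT1 and a classical H2B promoter element, stood in 14 of 18 H2B and 11 of 16 H2A promoters, in 1 of 12 H3 promoters and in 0 of the H1 and H4 promoters, against 1.66% of all. AAACACA stood in 6 of 6 H1 promoters and in 0 of the others, against 4.95% of all. Lower values were the majority both with and without each motif. Of genes with a row of their own, 18 of 23 with the octamer were lower (median -0.10) and 22 of 30 without it (median -0.07). The 5 genes without TATAA were all lower, with a median of -0.28, and 35 of the 48 with it were lower, with a median of -0.09. A match anywhere in the 250 bases counts, so H2BC14 is among those with TATAA although its printed stretch holds none. Identical rows, such as those of H4C14 and H4C15, were not merged here, so the same values can enter for more than 1 gene. A match describes the letters only and shows no binding.

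Histone rows were mostly lower in the doxycycline culture, by small amounts. Of the 79 rows, 64 were lower, 13 were higher and 2 were equal. Among all 21214 rows with a symbol, 49.2% were lower and 49% higher. The median of the histone rows was -0.12, a 1.09-fold difference, with quartiles of -0.22 and -0.03, whereas the median of all rows with a symbol was 0 and their quartiles -0.11 and 0.11. None of the 79 reached 1.5-fold in either direction (0 of 79), a size that 0.387% of all rows reached downwards and 0.467% upwards. At 1.2-fold, 10 were lower and 2 higher, against 6.13% and 7.16% of all rows. In bulk RNA, fewer cells in S phase cannot be told apart from less histone mRNA per such cell. The rows are not independent of each other. Near-identical copies can share probes, and 8 rows form 4 groups of 2 with the same values in both samples; counted once, 60 of 75 were lower with a median of -0.12.

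**Figure D1:**
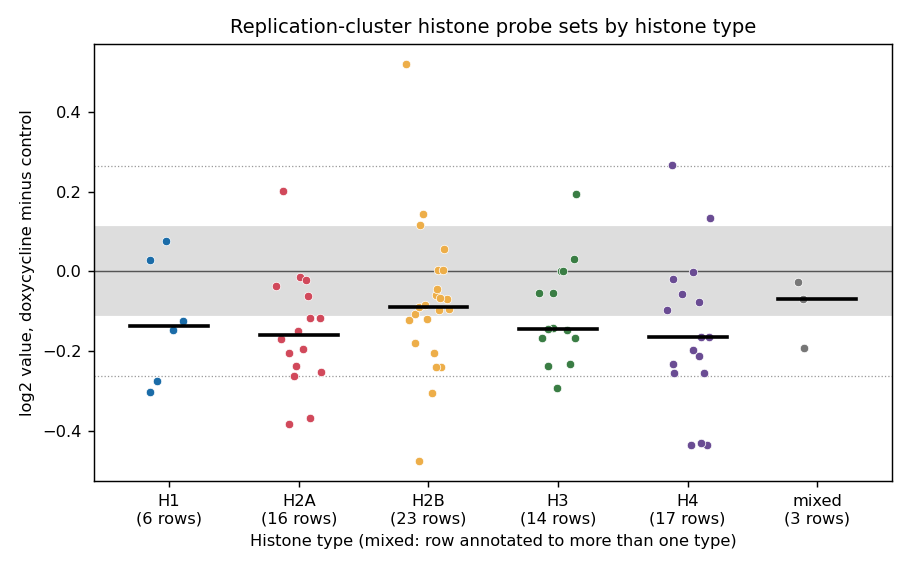
Difference in log2 value (doxycycline minus control) of each of the 79 histone rows by histone type. Points are probe set rows, black bars medians, the grey band the quartiles of all rows with a symbol (-0.11 to 0.11), and dotted lines 1.2-fold. The medians of all 5 types lie below 0, from -0.17 for H4 to -0.09 for H2B. The row at 0.52 is H2BC14, whose mean was low, at 6.15.

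The difference was clearest where the signal was strong. Of 38 histone rows with a mean of at least 10, 36 were lower, with a median of -0.17, while 53.6% of the 2148 rows at that level were lower, with a median of -0.01. The 38 are not all separate measurements, since 15 carry several symbols and 34 remain with identical rows counted once. Of these 38, 6 were at least 1.2-fold lower and 0 higher, against 1.86% and 1.77% of all rows at that level. Those 6 rows were H1-2, H1-5, H2AC4, H2BC12 and the identical H4C14 and H4C15 rows. The 2 bright rows that were higher were H2AC11 and H4C5. Of 30 rows with a mean from 6 to 10, 22 were lower, with a median of -0.06, against 48.5% of all rows at that level. The 11 dim rows under 6 split into 6 lower, 4 higher and 1 equal, with a median of -0.08, and 49.2% of all rows at that level were lower. The spread over all rows with a symbol was wider at low signal, with quartiles of -0.15 and 0.14 under a mean of 6 and of -0.09 and 0.07 from a mean of 10.

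**Figure D2:**
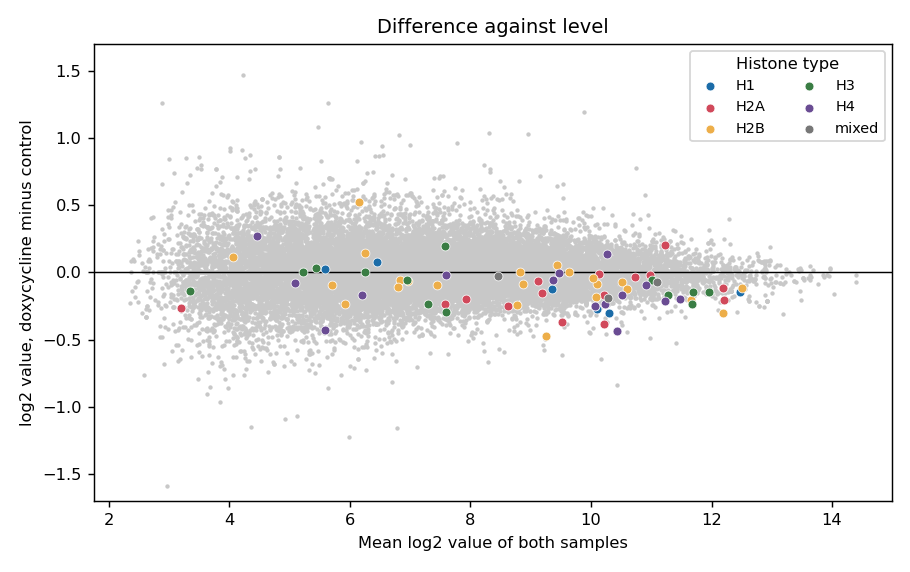
Difference in log2 value (doxycycline minus control) against the mean log2 value of both samples. Grey points are the 21214 rows with a symbol and coloured points the 79 histone rows; past a mean of 10, 36 of 38 histone rows lie below 0.

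Gene length went along with the difference. The 59 histone rows with 1 symbol had a median genomic span of 489 bases, against 24210.5 for other such rows. Among other protein-coding genes of at most 3000 bases, 749 of 1303 rows were lower, with a median of -0.04, and of the 76 with a mean of at least 10, 53 were lower, with a median of -0.06. After subtraction of the trend with span, a step chosen after the data were seen, 40 of the 59 histone rows were lower and 19 higher, with a median of -0.06, compared with 45 lower and a median of -0.10 before it. Span accompanied the histone difference, and its part in it was not tested beyond this.

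Linker histones of somatic type were lower in 4 of 5 cases. H1-4 (8117377) had log2 values of 12.40 (doxycycline) and 12.55 (control), a difference of -0.15. H1-5 (8124527) stood at 10.15 and 10.46, or 1.23-fold lower, and H1-2 (8124397) at 9.97 and 10.25, or 1.21-fold lower. H1-3 differed by -0.12, at 9.30 and 9.42. The doxycycline value was thus the lower one for every H1 gene with a mean above 8. The remaining somatic gene, H1-1, was dim at 5.61 and 5.58, and H1-6, the testis linker histone, stood at 6.49 and 6.41, a difference of 0.08.

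H2A, the histone that PRC1 ubiquitinates, had 15 of 16 rows lower and a median of -0.16. H2AC4 (8124391) had log2 values of 10.02 (doxycycline) and 10.41 (control), 1.30-fold lower. H2AC12 (8117543) stood at 9.34 and 9.71, or 1.29-fold lower, and H2AC8 (8117408) at 8.50 and 8.75, or 1.19-fold lower. All 3 encode H2A of the main replication-dependent kind. H2AC20 (7905088) stood at 12.11 and 12.32, a difference of -0.20. The pair of identical rows naming H2AC18, H2AC19, H2AC20 and H2AC21 stood at 12.13 and 12.25, a difference of -0.12, so the HIST2 H2A rows had the same sign. H2AC11 (8117535) was the exception at 11.33 against 11.13, or 1.15-fold higher. H2AC14, with values of 3.07 and 3.33, was the dimmest H2A row.

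H2B rows were lower in 17 of 23 cases and higher in 6, with a median of -0.09. All 8 H2B rows with a mean of at least 10 were lower. H2BC12 (8124492) had log2 values of 12.04 (doxycycline) and 12.35 (control), 1.23-fold lower. The row naming H2BC12, H2BC12L, H2BC17 and H2BC5 stood at 12.44 and 12.56, and that naming H2BC19P, H2BC20P and H2BC21 at 11.56 and 11.77, differences of -0.12 and -0.20. H2BC1 (8117301), the testis-specific H2B, had the largest negative difference of all histone rows, at 9.02 and 9.50, or 1.39-fold lower. Its partner H2AC1, the testis-specific H2A, differed by -0.15, at 9.11 and 9.26. H2BC13 differed by -0.24. The largest positive difference was that of H2BC14 (8117594), at 6.41 and 5.89 (1.43-fold higher). Its mean of 6.15 was low, and its control value was under 6. The row of H2BC18 and FCGR1BP differed by 0.14 and H2BC5 by 0.06. The other rows naming H2BC18 were lower, by -0.12 at the brightest (7904465, mean 10.59) and by -0.09 and -0.06.

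H3 rows were lower in 10 of 14 cases, higher in 2 and equal in 2, with a median of -0.14. The 4 rows shared by H3C13, H3C14 and H3C15 of the HIST2 cluster stood between 11.19 and 11.89 with doxycycline and between 11.36 and 12.03 without, differing by -0.15 to -0.17. H3C2 (8124388) of HIST1 stood at 11.55 and 11.79, a difference of -0.24. H3C12 differed by -0.29, at 7.46 and 7.75, and the testis-type gene H3-4 by -0.23, at 7.19 and 7.42. H3C1 was higher at 7.67 against 7.47, a difference of 0.19, and the rows of H3C3 and H3C8 had equal values in both samples. The H3 median rested on the shared HIST2 rows: without rows of several symbols it was -0.05 over 9 rows, of which 5 were lower.

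H4 rows, from genes that encode one and the same protein in nearly all copies, were lower in 15 of 17 cases with a median of -0.17. The identical rows of H4C14 (8180321) and H4C15 (8180255) had log2 values of 10.21 (doxycycline) and 10.65 (control), 1.35-fold lower. A further pair of identical rows annotated to both genes differed by -0.25, at 9.94 and 10.20, so rows of the same genes gave the same sign and unequal sizes. H4C3 (8117368) stood at 11.37 and 11.57, a difference of -0.20, and the brighter row of H4C11 and H4C12 at 11.13 and 11.34, a difference of -0.21. H4C8 differed by -0.10. H4C5 (8117402) was higher, at 10.34 and 10.21, a difference of 0.13. The dim row of H4C16, the lone gene of HIST4, stood at 4.60 and 4.33. Without rows of several symbols the H4 median was -0.10 over 13 rows, 11 of them lower. The 3 rows of mixed type were all lower: -0.07 for H3C10 with H2AC13, -0.19 for H3C4 with H2AC7 and -0.03 for H2BC15 with H2AC15. Whether histone types differ from each other in the size of the difference was not tested.

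**Figure D3:**
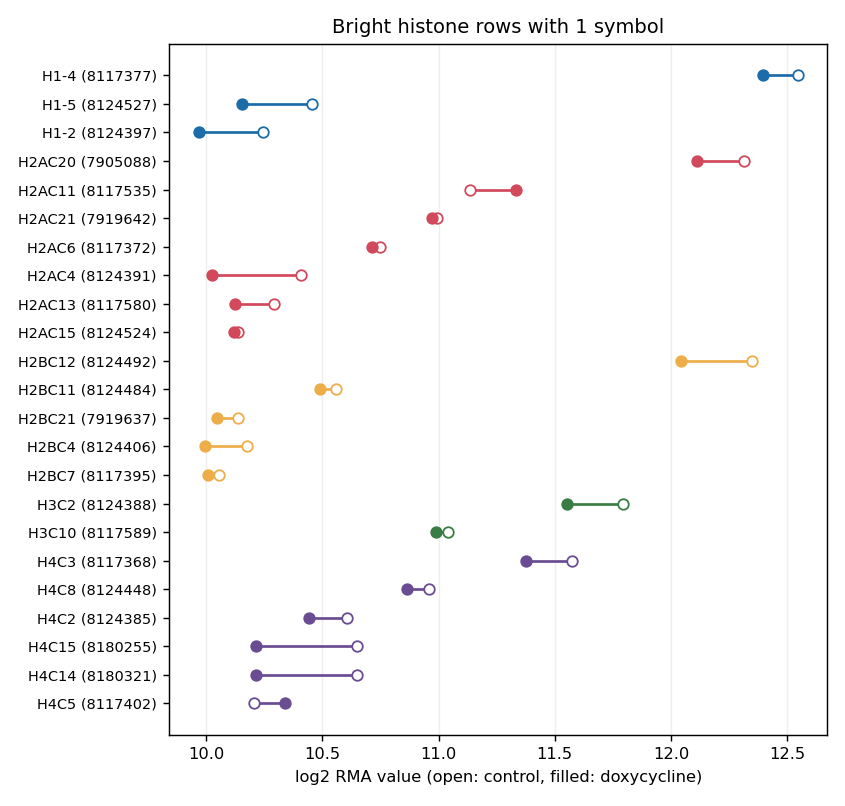
Log2 values of the histone rows with 1 symbol and a mean of at least 10, with the probe set in brackets; open circles are the control sample, filled circles the doxycycline sample, and colours the histone types. The filled circle lies to the left in every row except those of H2AC11 and H4C5.

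The lower values were spread over the genome's histone clusters. In HIST1 on chromosome 6, 43 of 56 rows were lower with a median of -0.11. In HIST2 on chromosome 1, 18 of 19 were lower with a median of -0.15. Among all rows with a symbol, 49.2% were lower. All 4 groups of identical rows lie in HIST2 and many of its rows carry several symbols, so the 19 are not separate measurements. All 3 rows of HIST3 were lower and the 1 row of HIST4 was higher. Many H2A and H2B genes stand head to head and share the DNA between their starts. RefSeq gave 12 pairs of member genes with starts 194 to 248 bases apart, 11 of them of H2A with H2B, and 9 had a row of its own for each partner. Both partners were lower in 5 of the 9, the partners went opposite ways in 4, and both were higher in 0. Among the opposite pairs, H2BC8 and H2BC17 were each higher by only 0.003. H2AC13 and H2BC13 were close, at -0.17 and -0.24. H2AC11 and H2BC11 were not, at 0.20 and -0.07, nor were H2AC14 and H2BC14, at -0.26 and 0.52. The H2AC14 row was dim, at 3.07 with doxycycline and 3.33 without, and the H2BC14 row was low too, at 6.41 and 5.89. The median absolute difference between partners was 0.20, and it was not set against that of unrelated rows.

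Within the HIST1 region, genes that are not histones differed the other way, a comparison made after the values were seen. Of 49 histone genes with a row of their own there, 36 were lower, 11 higher and 2 equal, with a median of -0.10. Of 21 other genes lying between the histone genes, 16 were higher and 5 lower, with a median of 0.14. Among all rows with a symbol, 49.2% were lower and 49% higher. The highest mean of the other genes was 9.12, under the level of 10 from which the histone difference was clearest. At least 1.2-fold higher were 5 of the 21, against 7.16% of all rows. Those were BTN3A1 (7.43 with doxycycline and 6.87 without), BTN3A3 and BTN2A3P of the butyrophilin family, some of whose members are known for phosphoantigen sensing by T cells, TRIM38 (9.01 and 8.54), a ubiquitin ligase of innate signalling, and the pseudogene ZNF204P. The histone genes fell into 3 blocks separated by more than 200000 bases. In the first, from H2AC1 to H4C8, 22 of 31 were lower, in the middle one, from H2BC11 to H2AC12, 4 of 5, and in the last, from H2BC13 to H2BC17, 10 of 13. The difference between histone and other genes was not tested.

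**Figure D4:**
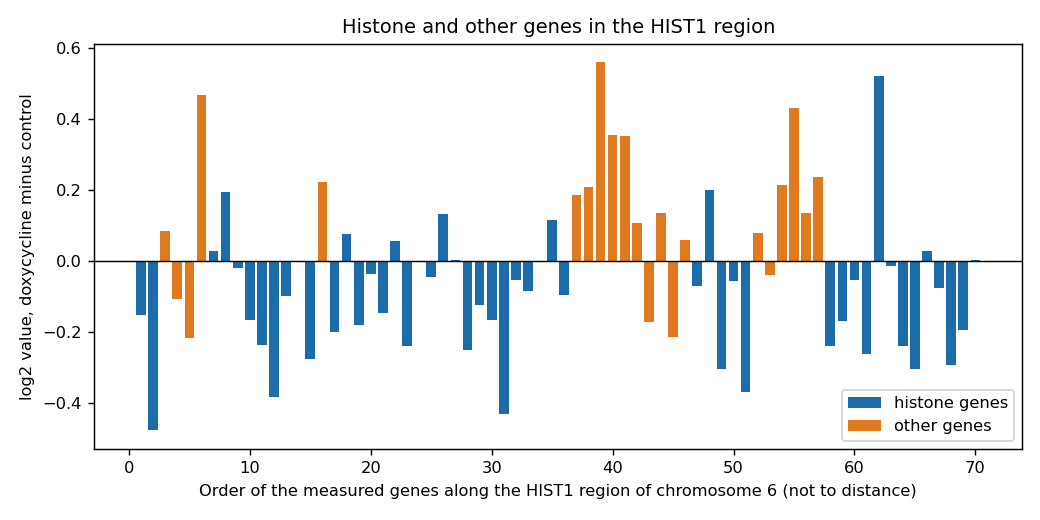
Difference in log2 value (doxycycline minus control) of the measured genes of the HIST1 region in their order along chromosome 6, not drawn to distance, with 1 row per gene. Blue bars are histone genes, of which 36 of 49 are lower, and orange bars other genes, of which 16 of 21 are higher.

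Genes that make and process histone mRNA showed no common direction. Of 27 rows, 15 were lower and 12 higher, with a median of -0.05. NPAT, the cyclin E and CDK2 substrate that activates histone transcription, stood at 8.75 with doxycycline and 8.60 without. HINFP, the H4 promoter factor, stood at 8.12 and 8.01, and CASP8AP2 (FLASH), which joins transcription and processing at the histone locus body, at 8.88 and 8.87. SLBP, the stem-loop binding protein, stood at 9.85 and 10.00, a difference of -0.15. CRAMP1, a regulator of H1 genes, differed by -0.14, CCNE1 by -0.11, CCNE2 by 0.16 and CDK2 by -0.08, so regulators of histone transcription lay on both sides of 0. LSM10 and LSM11, the Sm-like proteins particular to the U7 particle, differed by -0.15 and -0.03, and CPSF3, the nuclease that cuts the mRNA, by 0.01. Of the shared Sm proteins, SNRPF differed by -0.31 and SNRPG by -0.22 and -0.13 at its 2 rows, while the 2 rows of SNRPE disagreed at 0.25 and -0.13. TUT4, a terminal uridylyltransferase, differed by 0.24.

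Histone chaperones were close to level, with 20 of 33 rows lower and a median of -0.03. CHAF1A and CHAF1B, which deposit H3 and H4 at replication forks, differed by -0.11 and -0.04, and ASF1A and ASF1B, which hand over H3 and H4, by 0.07 and 0.04. The FACT subunits SUPT16H and SSRP1, which handle H2A and H2B, differed by -0.16 and by -0.19, but the dimmer row of SSRP1 differed by 0.05. IPO4, an importer of H3 and H4, differed by -0.25, and MCM2, a helicase subunit that also binds H3 and H4, by -0.20. ATRX, which deposits replacement H3 with DAXX, was higher at both rows, by 0.45 and 0.17. The row naming SET and SETSIP differed by -0.48 while the row of SET alone differed by 0.02, so SET has no settled direction.

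Histone genes outside the clusters, many of which make polyadenylated mRNA through the whole cell cycle, had 17 of 23 rows lower and 5 higher. Their median was -0.06, and 49.2% of all rows with a symbol were lower. H2AX, a variant of the DNA damage response, differed by -0.18, and H1-10, a replacement linker histone, by -0.22. The genes H3-3A and H3-3B, which encode the same replacement H3 protein, went opposite ways. The 4 rows of H3-3A, all shared with H3P6, differed by -0.15 to -0.18, whereas H3-3B was higher by 0.18, at 11.53 and 11.35, and its retrogene relative H3-5 by 0.23. H2AZ1 and H2AZ2 differed by -0.05 and -0.04. Without rows of several symbols, 9 of 15 were lower, with a median of -0.04.

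DNA replication genes, with which histone synthesis is coupled in S phase, had 22 of 31 rows lower with a median of -0.04. Among all rows with a symbol, 49.2% were lower. After centring on each sample median, 19 of the 31 were lower and 12 higher, and quantile normalization also left 19 lower. UHRF1 differed by -0.33 and -0.20 at its rows, GINS2 by -0.26 and MCM2 by -0.20, while PCNA differed by -0.10 and RRM2 by -0.03. The MCM2 row is the same one that counts among the histone chaperones. Of the 9 higher rows, LIG1, the ligase of the lagging strand, differed by 0.17 and PRIM1, a primase subunit, by 0.11. The medians of the 4 lists, from -0.06 to -0.03, lay between the histone median of -0.12 and the median of 0 over all rows with a symbol, and the distance between lists was not tested.

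**Figure D5:**
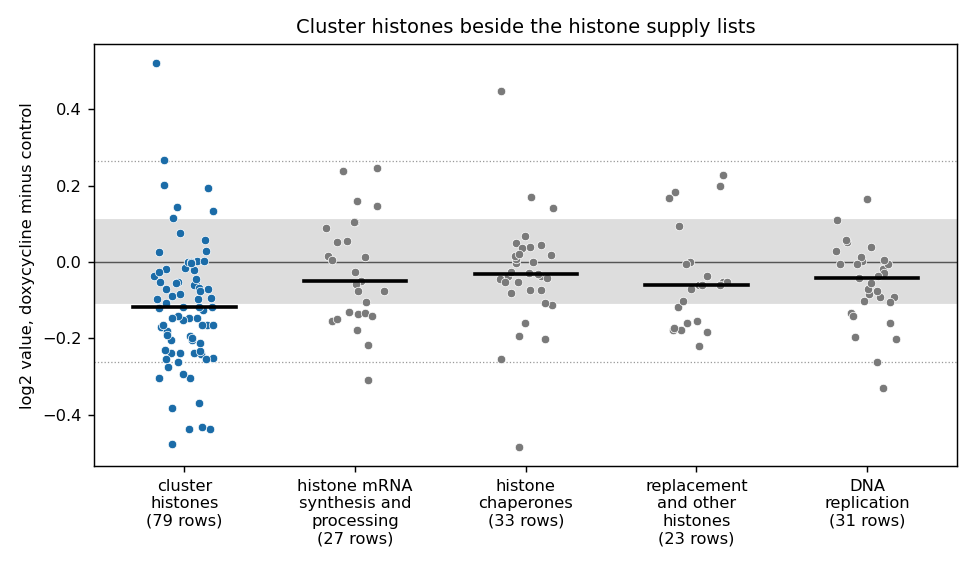
Difference in log2 value (doxycycline minus control) of the 79 cluster histone rows beside the 4 lists of the histone supply chain. Points are rows, black bars medians, the grey band the quartiles of all rows with a symbol, and dotted lines 1.2-fold; the cluster histones have the lowest median, -0.12.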

How the data were processed

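Total RNA of each culture (0.3 µg, RNA integrity number 10) was biotin-labelled and run on an Affymetrix array, 1 for each culture, per the labels. The authors' deposited log2 values came from RMA in Affymetrix Expression Console 1.1.1, according to the submitters' processing notes. RMA removes background, equalises the distributions of the arrays and fits each probe set by median polish. Differences of dim rows therefore come out too small, and a shift common to all genes would be lost. No label states the log base, which follows from RMA and the values (1.61 to 14.6). The set of arrays normalized jointly is not stated here. The design text and the platform annotation name different arrays, and the annotation was used. Of 33297 rows, 19460 had 1 symbol, 1754 several and 12083 none here. Older names were found through Entrez IDs in RefSeq (GRCh38.p14).

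With 1 sample per group, sets were described by counts and medians beside all rows with a symbol, and the number of arrays limits the precision. Named were the 3 histone rows per type with the highest mean, the 3 largest differences in each direction among rows with a mean of at least 6, rows past 1.5-fold (0 found), 4 rows per other list and NPAT, SLBP, CASP8AP2 and HINFP; other genes were named for their role or after their values were seen. The members and lists were chosen with earlier results of these data known. Alternatives covered scaling, a trend with level, floors on the mean and the handling of shared rows. The counting steps were tested on simulated data. Python 3.11.15, numpy 2.4.6, pandas 2.3.3, statsmodels 0.14.6 and matplotlib 3.10.9 were used.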

Additional observations from a re-analysis of the deposited data

How the results depend on the processing

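The histone median stayed below 0 under all 10 alternatives (-0.15 to -0.06), and so did the median of each histone type and of each of the 4 lists under all 8 of theirs. Centring moved the median of all rows with a symbol by 0.01. Counts of lower histone rows stayed within 1.5 times of 64 except after subtraction of the span trend, a step added after seeing the data. It left 40 of 59 lower and a median of -0.057. That step covers only the 59 rows with 1 symbol, of which 45 were lower before it, with a median of -0.096. Medians that moved by over 1.5 times were -0.21 for H1 with a mean of at least 8 (fewer rows), -0.053 for H3 and -0.10 for H4 without rows of several symbols, -0.053 for H3 with 1 row per symbol, -0.10 with a mean of at least 8 and -0.036 without shared rows for histones outside the clusters, -0.015 for histone chaperones after subtraction of the trend with level, and -0.026 for histone mRNA synthesis and processing when the mean replaced the median; beyond the fewer rows, the cause was not tested. At 1.2-fold in place of 1.5-fold, 12 in place of 0 histone rows were counted. No paired analysis was possible because each group held 1 sample. No replicate could be left out, and dim rows near the lower end of the signal range have differences that array background can set.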
